A study of Mus musculus with 8 samples.

Results

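Liver mRNA of 10 bile acid and organic anion transporters was examined in 8 RNA-seq samples from WT and HRD1Alb mice. The genes were listed by symbol for their known roles, with earlier results of these data known, and all 10 were among the 23337 gene symbols of the count files. They were 5 carriers for uptake across the sinusoidal membrane (Slc10a1, Slco1a1, Slco1a4, Slco1b2 and Slco2b1), 4 pumps for export across the canalicular membrane (Abcb11, Abcb4, Abcc2 and Abcg5), and 1 pump for efflux across the basolateral membrane (Abcc3). All 10 passed the filter on low counts and were among the 14328 genes tested.

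The mice were 12 weeks old and of the C57BL/6 strain. The 4 groups were WT fasted, HRD1Alb fasted, WT refed and HRD1Alb refed, with 2 samples in each. Fasted mice were fasted overnight, and refed mice were given food for 4 h after the fast. In HRD1Alb mice (Hrd1-/- in the labels) a floxed HRD1 gene, listed in the files as Syvn1, is deleted by Cre under the albumin enhancer and promoter, so the deletion acts in cells of the hepatocyte lineage from early liver development, and per the study the control mice carried the floxed gene without Cre, while the labels call them WT. The labels do not state that the samples of a group came from separate mice, so the p-values measure the spread between these samples, which may be in part technical.

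Hepatocytes take up bile acids from portal blood across the sinusoidal membrane and pump them into bile across the canalicular membrane. NTCP, encoded by Slc10a1, carries conjugated bile acids together with sodium, whereas the OATP carriers of the Slco genes take up unconjugated bile acids, bilirubin, hormone conjugates and drugs without sodium. The bile salt export pump (Abcb11) drives bile flow, MDR2 (Abcb4) moves phosphatidylcholine and ABCG5 with ABCG8 moves cholesterol into the same bile, and MRP2 (Abcc2) exports conjugated bilirubin. MRP3 (Abcc3) returns conjugates to the blood. The bile acid receptor FXR (Nr1h4) is known to induce Abcb11 and the repressor SHP (Nr0b2).

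Total counts per sample ranged from 40210576 to 49117080, and 3 counts corresponded to 0.0611 to 0.0746 CPM (counts scaled to a fixed library size). Levels are given as CPM normalized by the TMM method. Syvn1 was 111 and 99.8 CPM in WT fasted samples and 32.6 and 31.5 CPM in HRD1Alb fasted samples. It was 637 and 305 CPM in WT refed samples and 453 and 132 CPM in the libraries labelled HRD1Alb refed, so the genotypes overlapped after refeeding, and the test passed the threshold in neither state (edgeR quasi-likelihood adjusted p = 0.170 fasted and 0.391 refed). Reads on exons that are not deleted are counted with the gene, and the deleted exons are not given. The Syvn1 count therefore does not settle the refed label. The study reports loss of HRD1 mRNA and protein in HRD1Alb liver, without stating whether the sequenced samples were among those measured. The summed sex-biased genes given below separated the genotypes in refed as in fasted liver. Those lists were chosen with earlier results of these data known, so this separation is no independent check of the label. Every direction given below for refed liver rests on the libraries labelled HRD1Alb refed. In that group 22.4% of tested genes differed by 2-fold or more between its 2 samples, against 2.96% to 7.96% in the other groups, and longer transcripts had lower values in replicate 2 relative to replicate 1 (across genes, Spearman rho = -0.56 over 12969 genes, which are not independent replicates). The 8 hepatocyte markers summed to 119024 to 160044 CPM in WT samples and to 71202 to 120707 CPM in HRD1Alb samples, with 0 called in either feeding state and 2 called lower over both. Alb made up most of this sum (110880 CPM in WT fasted replicate 2), and the markers did not all run alike. Tat was 1450 and 1567 CPM in WT refed and 2713 and 1498 CPM in HRD1Alb refed samples. Apoa2 and Ttr in HRD1Alb refed replicate 2 (8862 and 6569 CPM) lay above every WT sample. The 7 Kupffer cell markers summed to 76.1 to 90.5 CPM in WT samples and to 191 to 422 CPM in HRD1Alb samples, and 2, 6 and 7 of the 7 were called higher in fasted, refed and combined comparisons. The 7 stellate cell markers summed to 169 to 368 CPM in WT samples and to 358 to 497 CPM in HRD1Alb samples, with 0, 3 and 6 called higher. The 6 sinusoidal endothelial markers summed to 94.6 to 123 CPM and the 8 cholangiocyte markers to 44.8 to 102 CPM over all samples, with 0 called. In bulk liver, fewer hepatocytes and less mRNA per hepatocyte cannot be told apart, and the part of other cell types in the differences below was not tested.

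The promoters of 6 transporters are shown, those of the genes called between genotypes over both feeding states. Each is the stretch of 250 bases upstream of the RefSeq start, from GRCm38.p6, 5′ to 3′ on the strand of the gene. Slc10a1 had 2 listed promoters and Slco2b1 had 3. For these genes the promoter nearest the annotated gene start was taken, and the letters below were not looked up in their others. Capitals mark matches on either strand to TTCNNNGAA (the letters of a STAT5 site), GTTAAT (an HNF1 half-site) or AGGTCA (a nuclear receptor half-site, read as TGACCT on the other strand). Slc10a1 lies at chr12:80968706-80968955 (minus strand), Slco1a1 at chr6:141946963-141947212 (minus), Slco1a4 at chr6:141856221-141856470 (minus), Slco1b2 at chr6:141629268-141629517 (plus), Slco2b1 at chr7:99711341-99711590 (minus) and Abcb11 at chr2:69342617-69342866 (minus).
Slc10a1: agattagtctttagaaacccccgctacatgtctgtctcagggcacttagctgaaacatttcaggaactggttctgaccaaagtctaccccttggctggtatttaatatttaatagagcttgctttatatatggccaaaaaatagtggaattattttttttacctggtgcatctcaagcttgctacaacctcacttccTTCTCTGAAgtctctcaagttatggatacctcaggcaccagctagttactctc
Slco1a1: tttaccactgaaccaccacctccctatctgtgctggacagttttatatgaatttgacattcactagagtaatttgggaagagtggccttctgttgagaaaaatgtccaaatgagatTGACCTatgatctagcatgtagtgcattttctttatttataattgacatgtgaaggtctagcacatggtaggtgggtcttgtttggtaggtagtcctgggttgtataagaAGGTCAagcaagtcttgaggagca
Slco1a4: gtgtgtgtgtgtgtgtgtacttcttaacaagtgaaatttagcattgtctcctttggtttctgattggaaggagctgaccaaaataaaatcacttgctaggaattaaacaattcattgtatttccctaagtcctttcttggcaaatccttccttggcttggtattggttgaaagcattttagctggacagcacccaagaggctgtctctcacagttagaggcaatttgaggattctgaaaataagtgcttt
Slco1b2: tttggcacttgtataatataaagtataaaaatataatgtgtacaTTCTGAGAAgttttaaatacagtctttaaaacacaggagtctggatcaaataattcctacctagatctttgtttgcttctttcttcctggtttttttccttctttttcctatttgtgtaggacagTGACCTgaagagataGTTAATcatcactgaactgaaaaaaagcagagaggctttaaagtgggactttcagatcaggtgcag
Slco2b1: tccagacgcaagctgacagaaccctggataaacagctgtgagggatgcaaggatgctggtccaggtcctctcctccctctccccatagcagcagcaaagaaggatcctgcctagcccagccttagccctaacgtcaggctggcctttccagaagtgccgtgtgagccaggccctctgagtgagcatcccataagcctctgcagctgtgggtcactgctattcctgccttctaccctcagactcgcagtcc
Abcb11: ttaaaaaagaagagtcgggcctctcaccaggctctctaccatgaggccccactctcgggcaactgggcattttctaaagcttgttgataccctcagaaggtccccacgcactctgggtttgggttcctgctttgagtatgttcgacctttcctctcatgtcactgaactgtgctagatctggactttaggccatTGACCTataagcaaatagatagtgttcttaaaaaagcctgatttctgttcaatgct
TTCNNNGAA was found in Slc10a1, 53 bases before the start, and in Slco1b2, 206 bases before it. It was present in 7.02% of 32851 promoters of the same length. GTTAAT was found only in Slco1b2 among the 9 members with a listed promoter, 66 bases before the start, and in 6.43% of all promoters. AGGTCA was found in Slco1a1, Slco1b2, Abcb11 and Abcc2, and in 14.02% of all promoters. The windows of Slco1a4, Slco2b1, Abcb4 and Abcg5 held none of these letters. The exact inverted repeat of this half-site with a spacer of 1 base, the form of an FXR site, was in none of the 9. It was in only 2 of all 32851, and repeats with a mismatch were not searched for. The exact search therefore cannot show that any of these windows, that of Abcb11 included, lacks an FXR site. Abcc3 was not in the promoter table.

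Among the 10 members, the calls between genotypes fell mainly on uptake carriers, with Slco1a1, Slc10a1, Slco1b2 and Slco2b1 lower and Slco1a4 higher in HRD1Alb liver. Over both feeding states, 4 of the 5 uptake carriers were called lower and 1 was called higher, while of the 4 canalicular pumps Abcb11 alone was called lower and the basolateral pump Abcc3 was not called. A gene was called at a Benjamini-Hochberg adjusted p under 0.05 over all genes tested, in edgeR's quasi-likelihood test. In fasted liver 1 member was called, lower, and 1.35% of all genes tested were called (0.921% higher and 0.433% lower). In refed liver 4 members were called, all lower, against 11.9% of all genes (7.09% higher and 4.84% lower). Over the mean of both states, 5 members were called lower and 1 higher, against 19.1% of all genes (7.78% lower and 11.3% higher). The median log2 fold change of the 10 members was -0.53 in fasted, -0.89 in refed and -0.73 over both states, beside -0.02, 0.04 and 0.01 for all genes tested. The contrast of carriers and pumps covers only the genes listed. Of the further transporters described below, 9 were called lower and 3 higher over both states, with Abcg8, the partner of Abcg5, among the lower. Calls also depend on the spread. In refed liver Abcc2 had -1.41 ± 0.50 SE and was not called, whereas Slc10a1 had -1.34 ± 0.27 and was.

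**Figure D1:**
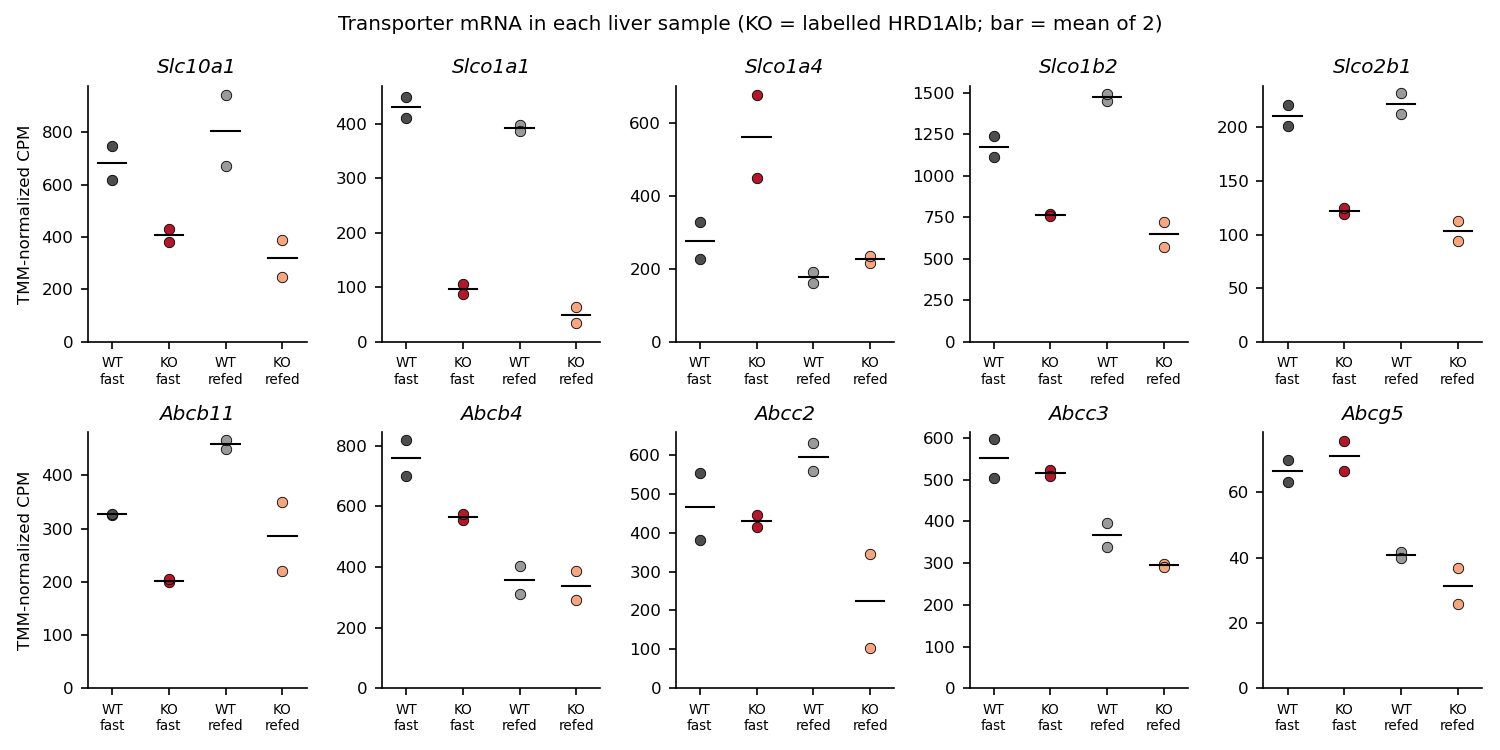
Levels of the 10 transporters in each sample, as TMM-normalized CPM on linear axes that start at 0, with 1 point per sample, a bar at the mean of the 2 samples, and KO for samples labelled HRD1Alb. Slco1a1 lay at 35.3 to 106 CPM in HRD1Alb samples and at 386 to 448 CPM in WT samples, and Abcc2 was 345 and 103 CPM in the 2 HRD1Alb refed samples.

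Slco1a1 (OATP1A1), a carrier of bile acids and steroid conjugates, had the largest difference between genotypes of the 10. Its level was 411 and 448 CPM in WT fasted, 87.8 and 106 CPM in HRD1Alb fasted, 397 and 386 CPM in WT refed, and 35.3 and 64.6 CPM in HRD1Alb refed samples. All 4 HRD1Alb samples lay below all 4 WT samples. The fitted level in HRD1Alb was 22.5% of WT in fasted liver (log2 fold change -2.15 ± 0.29 SE, edgeR adjusted p = 0.0281) and 12.7% of WT in refed liver (-2.97 ± 0.30, edgeR adjusted p = 0.00703). The fasted call was lost when any WT sample or any HRD1Alb fasted sample was left out. Those fits called far fewer genes in this comparison than the fit to all 8 samples.

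Slco1a4 (OATP1A4), which takes up bile acids and cardiac glycosides, went the other way. Its level was 227 and 329 CPM in WT fasted, 677 and 449 CPM in HRD1Alb fasted, 163 and 191 CPM in WT refed, and 217 and 235 CPM in HRD1Alb refed samples. The genotypes did not overlap in either state. The fold change was 2.03-fold in fasted liver (log2 1.02 ± 0.26 SE, edgeR adjusted p = 0.105) and 1.28-fold in refed liver (0.36 ± 0.26, edgeR adjusted p = 0.349), and it passed the test over the mean of both states (0.69 ± 0.18, edgeR adjusted p = 0.0391). That call was lost without any 1 of the WT or HRD1Alb fasted samples (edgeR adjusted p from 0.0524 to 0.152) and with the replicate block (0.0506). Within a sample, the ratio of Slco1a1 to Slco1a4, which does not depend on library normalization, was 1.36 to 2.44 in the 4 WT samples and 0.130 to 0.275 in the 4 HRD1Alb samples. Both genes lie in one cluster on chromosome 6 (Slco1a1 at chr6:141907282-141946962 and Slco1a4 at chr6:141805440-141856199), and 2.26% and 2.73% of the 50-base windows of their transcripts also occur in other genes, so part of their reads could be split between them.

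Slco1a1 is known to be male-biased and Slco1a4 female-biased in mouse liver. Of 11 listed male-biased genes, 5 were called lower in fasted, 7 in refed and 10 over both states, and their summed level was 3235 to 8015 CPM in WT and 860 to 1864 CPM in HRD1Alb samples. Of 9 female-biased genes tested, 2 (Cyp2b13 and Hao2) had at most 4 counts in any WT sample and passed the filter only through HRD1Alb samples, and of the other 7, 1, 1 and 5 were called higher. The summed level of all 10 listed was 4.86 to 40.6 CPM in WT and 389 to 611 CPM in HRD1Alb samples. Neither sum overlapped between genotypes in fasted or in refed liver, and both lists were chosen with earlier results of these data known. Y-linked transcripts were present in all 8 samples, each at 5.06 CPM or more, and Xist did not exceed 0.508 CPM. The part of these sex-biased programmes in the Slco1a1 and Slco1a4 differences was not tested.

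Slc10a1 (NTCP), the main sodium-dependent carrier of conjugated bile acids, was 619 and 749 CPM in WT fasted and 432 and 382 CPM in HRD1Alb fasted samples. After refeeding it was 671 and 942 CPM in WT and 249 and 389 CPM in HRD1Alb samples. The genotypes did not overlap in either state. HRD1Alb was at 59.4% of WT in fasted liver (log2 -0.75 ± 0.27 SE, edgeR adjusted p = 0.198) and at 39.6% in refed liver (-1.34 ± 0.27, edgeR adjusted p = 0.0283).

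Slco1b2 (OATP1B2), a carrier of unconjugated bile acids and bilirubin, had the highest CPM of the 10 in every group. Its level was 1114 and 1236 CPM in WT fasted, 767 and 756 CPM in HRD1Alb fasted, 1451 and 1494 CPM in WT refed, and 720 and 573 CPM in HRD1Alb refed samples. HRD1Alb was at 64.8% of WT in fasted liver (log2 -0.63 ± 0.17 SE, edgeR adjusted p = 0.123) and at 43.9% in refed liver (-1.19 ± 0.18, edgeR adjusted p = 0.0136). The samples of WT refed lay above those of WT fasted and the samples of HRD1Alb refed lay below those of HRD1Alb fasted, but the interaction did not pass the test (log2 -0.56 ± 0.25, edgeR adjusted p = 0.595).

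Slco2b1 (OATP2B1), a carrier of sulfated steroids, was 201 and 221 CPM in WT fasted and 120 and 124 CPM in HRD1Alb fasted samples. It was 212 and 232 CPM in WT refed and 93.9 and 113 CPM in HRD1Alb refed samples. All HRD1Alb samples lay below all WT samples. HRD1Alb was at 57.9% of WT in fasted liver (log2 -0.79 ± 0.16 SE, edgeR adjusted p = 0.0641) and at 46.5% in refed liver (-1.10 ± 0.16, edgeR adjusted p = 0.0133). Antisense genes overlap Slco2b1 and Abcb11, and the strand setting of the counting is not given in the sources used here. The refed calls of all 4 uptake carriers were lost when either WT refed sample was left out, or when only the refed samples were fitted. The fit of only the refed samples called 0 of the 13835 genes it tested. Those without a WT refed sample called far fewer genes than the fit to all 8 samples. These losses are therefore not particular to the carriers. Over the mean of both states, Slc10a1, Slco1a1, Slco1b2 and Slco2b1 were lower by 1.04, 2.56, 0.91 and 0.95 on the log2 scale (edgeR adjusted p from 0.00156 to 0.0128). With each sample left out in turn, the calls over both states held in all 8 fits for Slco1a1, Slco1b2 and Slco2b1, and that of Slc10a1 was lost without WT fasted replicate 2, WT refed replicate 2 or either HRD1Alb fasted sample (adjusted p up to 0.0624).

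**Figure D2:**
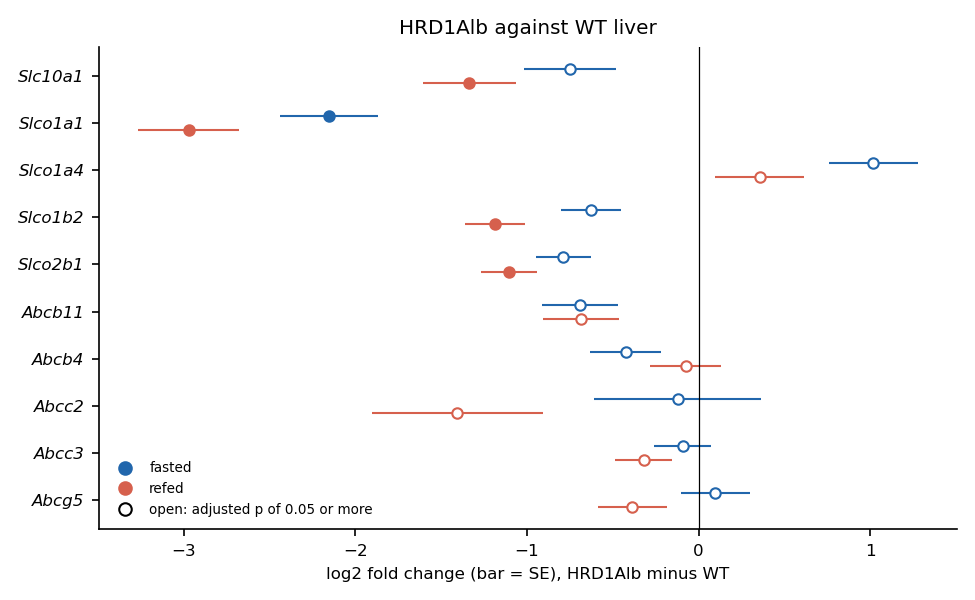
Log2 fold change of HRD1Alb against WT for the 10 transporters in fasted (blue) and refed (red) liver, with the SE as bars and filled points for an adjusted p under 0.05. The uptake carriers Slc10a1, Slco1a1, Slco1b2 and Slco2b1 lie at -0.63 to -2.97, Slco1a4 lies above 0 in both states, and Abcb4, Abcc3 and Abcg5 lie between -0.43 and 0.10.

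Among the canalicular pumps, Abcb11 (the bile salt export pump) was 326 and 327 CPM in WT fasted and 200 and 205 CPM in HRD1Alb fasted samples. It was 450 and 467 CPM in WT refed and 350 and 221 CPM in HRD1Alb refed samples. The genotypes did not overlap in either state, and the HRD1Alb level was 62.0% of WT in fasted and 62.3% in refed liver (log2 -0.69 ± 0.22 and -0.68 ± 0.22 SE). Neither difference passed the test alone (edgeR adjusted p = 0.165 and 0.0838), and their mean did (-0.69 ± 0.16, edgeR adjusted p = 0.0250). The call was lost without any 1 of the WT or HRD1Alb fasted samples (edgeR adjusted p up to 0.111).

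Abcb4 (MDR2), the phosphatidylcholine pump, was 817 and 701 CPM in WT fasted and 555 and 576 CPM in HRD1Alb fasted samples. It was 402 and 312 CPM in WT refed and 386 and 292 CPM in HRD1Alb refed samples. The genotypes were apart in fasted liver and overlapped in refed liver, and neither difference passed the test (log2 -0.43 ± 0.21 and -0.08 ± 0.21 SE, edgeR adjusted p = 0.335 and 0.809). In 3.42% of its 50-base windows the Abcb4 transcript is shared with other genes, mainly Abcb1a and Abcb1b.

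Abcc2 (MRP2), the pump for bilirubin conjugates, was 554 and 380 CPM in WT fasted and 414 and 444 CPM in HRD1Alb fasted samples. It was 631 and 557 CPM in WT refed and 345 and 103 CPM in HRD1Alb refed samples. The HRD1Alb samples fell within the WT range in fasted liver and lay below it in refed liver. The fitted difference was -0.12 ± 0.49 SE in fasted (edgeR adjusted p = 0.927) and -1.41 ± 0.50 in refed liver (edgeR adjusted p = 0.100), on the log2 scale. Abcc2 has the longest transcript of the members (8027 bases), and it was the only member 2-fold apart between the HRD1Alb refed samples (20408 and 4678 counts). Without HRD1Alb refed replicate 1 the refed difference was -2.54, in a fit that called 52.8% of all genes, and without replicate 2 it was -0.79, in a fit that called 23.7%. It also passed the threshold with a correction for transcript length and by DESeq2, which called 18.6% and 22.3% of all genes.

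Abcg5, one of the paired transporters that secrete cholesterol into bile, was 70.0 and 63.0 CPM in WT fasted and 66.4 and 75.8 CPM in HRD1Alb fasted samples. It was 41.7 and 39.9 CPM in WT refed and 25.7 and 36.8 CPM in HRD1Alb refed samples. The genotype differences did not pass the test (log2 0.10 ± 0.20 and -0.39 ± 0.20 SE, edgeR adjusted p = 0.856 and 0.216). Its partner Abcg8, whose gene overlaps Abcg5 on the other strand, was 82.4 to 104 CPM in WT fasted, 64.0 to 78.7 CPM in HRD1Alb fasted, 36.1 to 41.0 CPM in WT refed, and 16.4 to 24.6 CPM in HRD1Alb refed samples. Abcg8 was lower over both states (log2 -0.65 ± 0.17 SE, edgeR adjusted p = 0.0376), and the ratio of Abcg8 to Abcg5 within a sample was 1.31 and 1.48 in WT fasted, 0.964 and 1.04 in HRD1Alb fasted, 0.905 and 0.984 in WT refed, and 0.637 and 0.670 in HRD1Alb refed samples.

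Abcc3 (MRP3), the basolateral pump, was 598 and 504 CPM in WT fasted and 524 and 509 CPM in HRD1Alb fasted samples. It was 396 and 339 CPM in WT refed and 297 and 292 CPM in HRD1Alb refed samples. The genotypes overlapped in fasted and were apart in refed liver, and neither difference passed the test (log2 -0.09 ± 0.16 and -0.32 ± 0.16 SE, edgeR adjusted p = 0.826 and 0.209). In all, 6 members were lower and 1 higher with no overlap of the genotypes in fasted liver, where 34.2% and 30.6% of all genes were, and 8 were lower and 1 higher in refed liver, where 30.1% and 30.7% of all genes were.

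On refeeding, Abcb4 fell in WT liver and Abcc3, Abcg5 and Slco1a4 fell in HRD1Alb liver, whereas the refed samples of both genotypes lay above the fasted ones for Abcb11 without passing the test. In WT liver 1 member was called, Abcb4, lower by 1.09 on the log2 scale (SE 0.21, edgeR adjusted p = 0.0469), where 2.61% of all genes were called (1.2% higher and 1.41% lower). In HRD1Alb liver 3 members were called, all lower, where 10.5% of all genes were called (5.43% higher and 5.05% lower). These were Slco1a4 (log2 -1.32 ± 0.26 SE, edgeR adjusted p = 0.0261), Abcc3 (-0.81 ± 0.17, edgeR adjusted p = 0.0281) and Abcg5 (-1.19 ± 0.20, edgeR adjusted p = 0.0170). The same 3 genes had values of -0.65, -0.58 and -0.71 in WT liver, with adjusted p of 0.267, 0.131 and 0.135 in edgeR, and Abcb4 had -0.74 in HRD1Alb liver with 0.0639. Abcb11 had 0.49 ± 0.22 in WT and 0.50 ± 0.22 in HRD1Alb liver (edgeR adjusted p = 0.339 and 0.172). In WT liver 3 members were higher and 5 lower on refeeding with no overlap, as were 30.8% and 29.6% of all genes, and in HRD1Alb liver 1 was higher and 8 lower, as were 29.2% and 29.5% of all genes. The WT call was lost when any WT sample or any HRD1Alb fasted sample was left out. The calls in HRD1Alb were lost without either HRD1Alb fasted or either WT refed sample. All of these fits called fewer genes in the same comparison than the fit to all 8 samples.

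**Figure D3:**
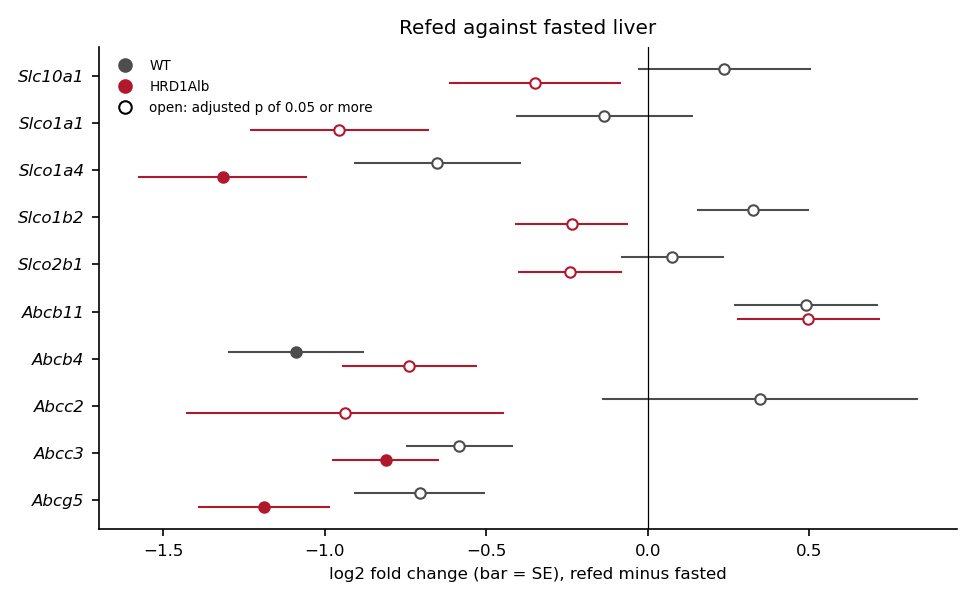
Log2 fold change of refed against fasted liver for the 10 transporters in WT (grey) and HRD1Alb (red), with the SE as bars and filled points for an adjusted p under 0.05. Abcb11 lies at 0.49 and 0.50, and Abcb4, Abcc3, Abcg5, Slco1a1 and Slco1a4 lie below 0 in both genotypes. Slc10a1, Slco1b2, Slco2b1 and Abcc2 lie above 0 in WT and below 0 in HRD1Alb liver.

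The interaction of genotype and feeding was called for 0 of the 10 members by edgeR, limma-trend and DESeq2, and for 0 of all genes by edgeR, which gave an unadjusted p under 0.05 to 1209 genes and to 0 members. DESeq2 gave such a p to 1 member and called 105 of all genes. The SEs of the interaction were 0.23 to 0.69 on the log2 scale for the members.

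**Figure D4:**
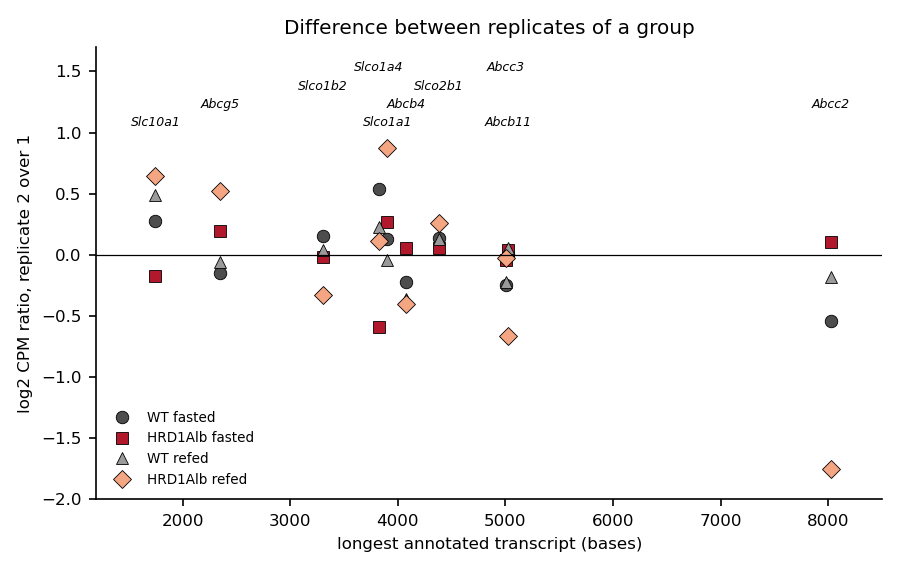
Log2 ratio of replicate 2 to replicate 1 in CPM (y axis) against the longest annotated transcript in bases (x axis) for the 10 transporters, with a symbol for each group. Abcc2 in HRD1Alb refed liver lies lowest, at a replicate ratio of 0.297, and the other points lie between ratios of 0.630 and 1.83.

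Per length of transcript, Slc10a1 and Slco1b2 were the most abundant of the 10 in WT liver, at 391 ± 52.4 and 355 ± 26.3 RPKM in fasted and 461 ± 110 and 445 ± 9.25 RPKM in refed samples (SD, n = 2). In fasted HRD1Alb liver they were 232 ± 20.2 and 230 ± 2.35 RPKM. Abcg5 was the least abundant in WT, at 28.3 ± 2.10 RPKM in fasted and 17.3 ± 0.540 RPKM in refed samples, and Slco1a1 was at 12.8 ± 5.31 RPKM in refed HRD1Alb liver. The order of the 4 groups differed between members. For Slc10a1, Slco1b2 and Slco2b1 it ran WT refed, WT fasted, HRD1Alb fasted, HRD1Alb refed, with the 2 WT groups overlapping for Slc10a1 and Slco2b1 and the 2 HRD1Alb groups overlapping for Slc10a1. For Abcb4 and Abcc3 it ran WT fasted, HRD1Alb fasted, WT refed, HRD1Alb refed, with the refed groups overlapping for Abcb4 and the fasted groups overlapping for Abcc3. For Abcb11 it ran WT refed, WT fasted, HRD1Alb refed, HRD1Alb fasted, where the middle groups overlapped.

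The genes most like each member were those with the smallest root mean square difference of centred log2 CPM over the 8 samples, among 8025 genes. Tmem63a was nearest to Slco2b1 (0.0656) and among the nearest to Slc10a1 (0.191), for which Uroc1, a histidine-degrading enzyme, was nearest (0.135). Slco1a1 was followed by Lrit1 (0.342) and Ces3b, a carboxylesterase (0.456). Slco1a4 was nearest to Bhlhb9 (0.210), Slco1b2 to Zfp946 (0.0979), Abcb11 to Necab1 (0.0833), Abcb4 to D4Bwg0951e (0.121), Abcc3 to Oplah (0.0534) and Abcg5 to Ldb1 (0.110). Abcc2 was nearest to Spen (0.0984) and Usp34 (0.133).

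Of 25 further transporters, 20 were tested. edgeR called 0 of them in fasted liver, where 9 had an unadjusted p under 0.05 (18.4% of all genes did) and DESeq2 called 7 (7.64% of all genes). In refed liver 2 were called higher and 5 lower, beside 7.09% and 4.84% of all genes. Over both states 3 were called higher and 9 lower, beside 11.3% and 7.78% of all genes. These counts include Slc51b, which is described next. Slc51b, a subunit of the basolateral bile acid exporter OST, was 0.123 and 0.184 CPM in WT refed and 1.15 and 1.34 CPM in HRD1Alb refed samples. It had 4 to 8 counts in WT and 19 to 68 in HRD1Alb samples and passed the filter only through the latter, so its call is given no weight, and its partner Slc51a did not exceed 0.0247 CPM in any sample. Slc10a2, the sodium-dependent carrier of the ileum and bile ducts, was 9.58 and 12.9 CPM in WT refed and 4.45 and 2.54 CPM in HRD1Alb refed samples (-1.68 ± 0.31, edgeR adjusted p = 0.0228). Slc47a1, an exporter of organic cations, was lower by 1.08 on the log2 scale in refed liver (SE 0.15, edgeR adjusted p = 0.0126), and Abcc6 by 1.36 (SE 0.22, edgeR adjusted p = 0.0162). The sterol exporter Abcg1 was higher by 1.30 (SE 0.25, edgeR adjusted p = 0.0249). Abcc4 (MRP4), a basolateral efflux pump, was 2.86 and 2.49 CPM in WT refed and 27.8 and 4.80 CPM in HRD1Alb refed samples, and did not pass the test (2.61 ± 0.77, edgeR adjusted p = 0.0677). That value rested on 1 sample, being 0.83 without HRD1Alb refed replicate 1 and 3.37 without replicate 2. Slc22a7, an organic anion carrier, was 9.90 and 9.81 CPM in WT fasted, 1.13 and 2.11 CPM in HRD1Alb fasted, 12.9 and 14.0 CPM in WT refed, and 2.12 and 7.15 CPM in HRD1Alb refed samples, and was lower over both states (-2.07 ± 0.38, edgeR adjusted p = 0.0134). That call was lost without HRD1Alb fasted replicate 1 or either WT refed sample.

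Of 22 regulators, 20 were tested, and edgeR called 0 in fasted liver, where 10 had an unadjusted p under 0.05 and DESeq2 called 2, beside the same 18.4% and 7.64% of all genes. In refed liver 4 were called, all lower, where 4.84% of all genes were called lower and 7.09% higher. Over both states 7 were lower and 1 higher, where 7.78% of all genes were lower and 11.3% higher. Nr1h4 (FXR) was 224 and 210 CPM in WT fasted, 151 and 147 CPM in HRD1Alb fasted, 246 and 273 CPM in WT refed, and 148 and 217 CPM in HRD1Alb refed samples. It passed the test over both states (log2 -0.52 ± 0.14 SE, edgeR adjusted p = 0.0439). Nr0b2 (SHP) was 11.8 and 15.5 CPM in WT fasted and 28.5 and 23.7 CPM in HRD1Alb fasted samples, and 36.2 and 31.0 CPM in WT refed and 18.0 and 14.7 CPM in HRD1Alb refed samples. HRD1Alb samples thus lay above WT in fasted liver (0.93 ± 0.21, edgeR adjusted p = 0.0830) and below WT in refed liver (-1.04 ± 0.21, edgeR adjusted p = 0.0285). Cebpa and Fgfr4, a hepatocyte transcription factor and the FGF15 receptor, were lower over both states (-0.50 ± 0.12 and -0.52 ± 0.12, edgeR adjusted p = 0.0257 and 0.0248). Ppara, the fatty acid receptor, was 219 and 227 CPM in WT refed and 74.6 and 63.7 CPM in HRD1Alb refed samples (-1.69 ± 0.18, edgeR adjusted p = 0.00817). Rxra, the partner of FXR on DNA, was lower by 0.63 in refed liver (SE 0.15, edgeR adjusted p = 0.0409), and Klb, the FGF15 co-receptor, by 0.99 (SE 0.17, edgeR adjusted p = 0.0190). The refed calls of the further transporters and the regulators were lost without either WT refed sample, and those of Abcg8, Nr1h4, Cebpa and Fgfr4 over both states without any 1 of the WT or HRD1Alb fasted samples. Here too, the fits called fewer genes in the same comparison than the fit to all 8 samples.

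**Figure D5:**
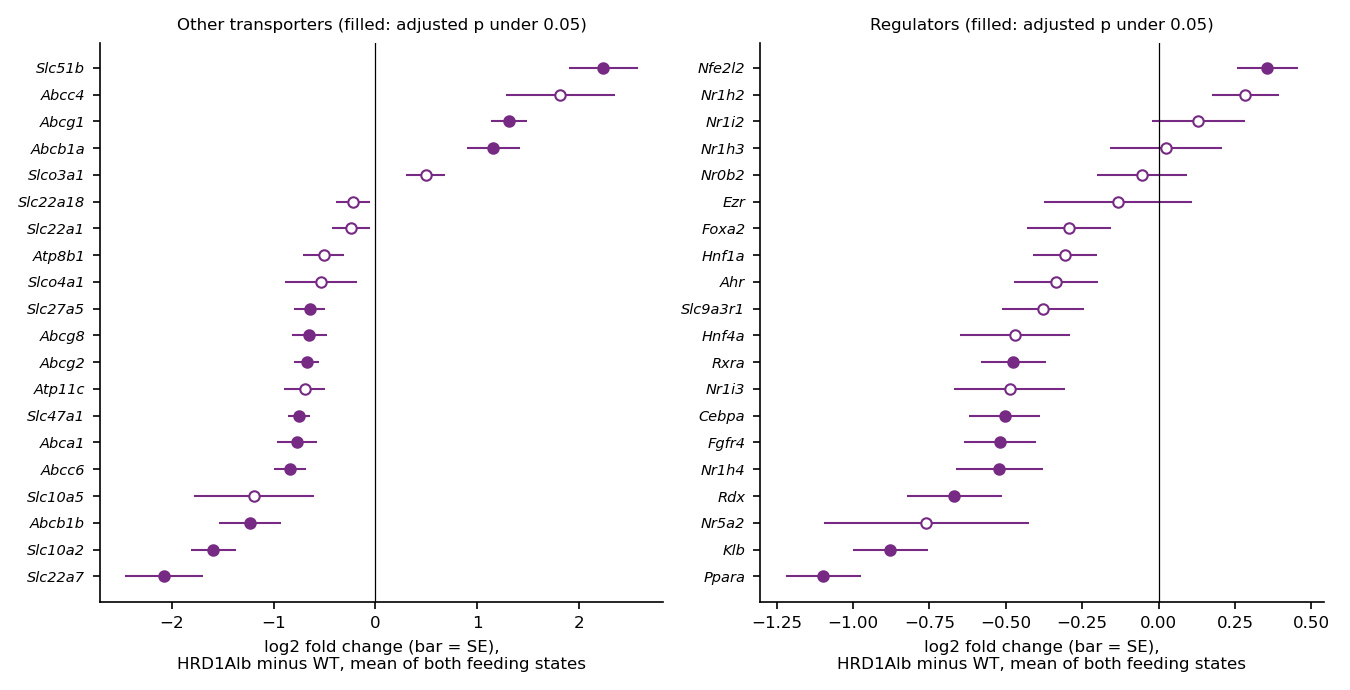
Log2 fold change of HRD1Alb against WT over the mean of both feeding states for the 20 tested further transporters (left) and the 20 tested regulators (right), with the SE as bars and filled points for an adjusted p under 0.05. On the left 3 filled points lie above 0 and 9 below, and on the right 1 lies above and 7 below.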

How the data were processed

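Liver RNA-seq counts from 8 samples in 4 groups were analysed, with groups taken from the labels. The deposited values are raw counts per gene symbol, 1 file for each sample, with no normalization by the authors. The study's methods name ERANGE for counting and limma for testing, while the submitters' processing notes name cutadapt, STAR, HTSeq and DESeq2 with build mm10, so the tool that made the counts is not settled, and neither is strand or the treatment of reads with several matches. Positions and lengths are those of GENCODE M21 on GRCm38, the same assembly as mm10, and promoters those of RefSeq on GRCm38.p6.

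Counts were analysed with edgeR 4.0.16 in R 4.3.3. Genes were filtered with filterByExpr (minimum count 10, minimum total 15), which kept 14328 of 23337 genes, libraries were scaled by TMM (factors 0.837 to 1.22), and 1 quasi-likelihood model with 4 group coefficients was fitted to all 8 samples (common dispersion 0.0573). Benjamini-Hochberg adjustment was used with a threshold of 0.05, and each SE was derived from the F statistic. With 2 samples a group the smallest p of an exact permutation test is 0.333, so significance rests on the spread shared across genes. Total counts of 40210576 to 49117080 per sample limit precision by counting error only slightly, and 3 counts are 0.0611 to 0.0746 CPM. The fits were tested on simulated data, and matplotlib 3.10.9 drew the figures.

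Alternatives were RLE scaling, DESeq2 1.42.0, limma-trend (limma 3.58.1), no filter, at least 10 counts in every sample, only the groups compared, a replicate block, a transcript length correction, and each sample left out. The members, gene lists and tests were chosen with earlier results of these data known. The text names the 10 members, the 3 tested genes of at least 10 CPM most like each (a selection of them), list genes called in a genotype contrast (the 5 with the smallest p where more were called, the others as counts), and Abcg8, Abcc4, Slc51a, Slc51b, Nr1h4 and Nr0b2 always. Slc51a, Slc51b and Adgre1 were found under older symbols by RefSeq synonyms, and Tf under Trf.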

Additional observations from a re-analysis of the deposited data

Results flagged for a closer look

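For 5 genes among the members, the further transporters and the regulators, the 2 samples of WT lay higher after refeeding and those of HRD1Alb lay lower. There was no overlap in either, and the interaction of genotype and feeding did not pass the threshold over all genes in edgeR. Of all genes, 30.8% lay higher on refeeding in WT without overlap and 29.5% lay lower in HRD1Alb. The share of all genes with both was not counted, so the 5 are not set apart from it. Slco1b2 went from 1114 and 1236 to 1451 and 1494 CPM in WT and from 767 and 756 to 720 and 573 CPM in HRD1Alb liver, with an interaction of -0.56 ± 0.25 SE on the log2 scale (edgeR adjusted p = 0.595). Abcc2 had an interaction of -1.28 ± 0.69 (edgeR adjusted p = 0.614). The exporter Slc47a1 had -0.64 ± 0.21 (edgeR adjusted p = 0.570) and the sterol exporter Abca1 had -0.94 ± 0.39 (edgeR adjusted p = 0.587).

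Nr0b2 (SHP) had an interaction of -1.97 ± 0.30 (edgeR unadjusted p = 0.000245 and adjusted p = 0.523). DESeq2 called it (adjusted p = 3.9e-05), as it did 0.733% of all genes. edgeR called it without HRD1Alb refed replicate 1 (adjusted p = 0.00160) and without replicate 2 (adjusted p = 0.0429), in fits that called 33.4% and 0.69% of all genes. The former fit also called Slco1b2, Abcc2, Slc47a1 and Abca1, and the latter fit called Slco1a1. With 1 sample left out, the interaction of Slco1a1 ranged from -1.32 to -0.45 on the log2 scale.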

How the results depend on the processing

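RLE scaling, no filter and a filter of at least 10 counts in every sample kept the number of members called in each comparison, as did limma-trend. All 249 alternative fits of the 15 called member differences kept their direction, and 185 kept the call. In fasted liver 1 member was called (Slco1a1), where 1.35% of all genes were. The length correction called 3 members (4.82% of all genes), and 2 with the replicate block added (3.59%). With only the groups compared 6 were called (14.6% of all genes), and DESeq2 called 4 (7.64%). The number also moved with 1 sample left out. In refed liver 4 were called, where 11.9% of all genes were. The length correction called 7 (18.6% of all genes), and 6 with the block added (17.5%). With only the groups compared 0 were called (0.0% of all genes), and DESeq2 called 6 (22.3%). This number, too, moved with 1 sample left out. Over both states 6 were called, and 3 to 8 with 1 sample left out. For refeeding in WT 1 was called, where 2.61% of all genes were. The length correction called 2 (5.35% of all genes), the fit of only the groups compared 4 (14.0%) and DESeq2 3 (7.58%). Leaving out 1 sample also moved this number. For refeeding in HRD1Alb 3 were called, where 10.5% of all genes were. The length correction with block called 5 (14.0% of all genes), the fit of only the groups compared 0 (0.0%) and DESeq2 5 (20.4%). Leaving out 1 sample moved it as well. The interaction was called for 0 to 2 members with 1 sample left out. Over these alternatives the share of all genes called reached 21.7% in fasted and 52.8% in refed liver, 54.0% over both states, 17.2% and 51.4% for refeeding in WT and HRD1Alb, and 33.4% for the interaction, each without HRD1Alb refed replicate 1. In such fits the lone sample of a group was assumed to vary like the other groups, and the cause of these shifts was not tested. Without any 1 of the WT or HRD1Alb fasted samples, fewer genes were called than with all 8 samples, in every comparison but the interaction. Calls lost in those fits are therefore not particular to the genes named. With 1 sample left out, uncalled differences near 0 changed sign for Abcc2 (-0.34 to 0.17), Abcc3 (-0.18 to 0.031) and Abcg5 (-0.0052 to 0.18) in fasted liver, for Abcb4 in refed liver (-0.30 to 0.12), and for Slc10a1 on refeeding in WT (-0.029 to 0.45). Whether the replicate numbers pair the samples is not settled. Over the tested genes, replicate differences correlated weakly between groups (r from 0.0161 to 0.179, mean 0.0689, with the highest between WT fasted and WT refed). Some sex-biased genes differed alike in both WT groups. Mup7 was 2322 and 148 CPM in WT fasted and 1175 and 160 CPM in WT refed replicates 1 and 2. Others did not, such as Mup20, at 1223 and 1520 CPM in WT fasted and 1402 and 542 CPM in WT refed. The replicate block left 1, 4, 5, 1, 4 and 0 members called in the 6 comparisons, in the order above, and took the call of Slco1a4 over both states to an edgeR adjusted p of 0.0506. Replicate spread rather than depth limits these tests, except for Slc51a and Slc51b with few counts.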
